A study of Mus musculus with 24 samples.

Results

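Macrophages grown from mouse bone marrow that lack a cis-regulatory element tied to Hdac9 in the labels were compared with wild type macrophages, without stimulation. The comparison used 8 of the 24 libraries of the series, chosen by their labels: 4 of the genotype that the labels write as HDAC9 deltaCIS, called dCIS below, and 4 of wild type (WT). All genes with enough counts were tested, 14757 of the 56941 gene IDs in the count table. Both groups were bone marrow-derived macrophages (BMDM) without lipopolysaccharide (LPS), the bacterial ligand of the receptor TLR4, and the labels give no strain, age, clone or deleted interval. Beside them stood 4 libraries of untreated HDAC9 knockout (KO) cells and 4 each of WT and dCIS cells after 6 h with 100 ng/ml LPS. Whether the 4 libraries of a group stand for 4 mice, 4 cultures or 1 culture is not in the labels, and a p-value here measures library spread that could be technical alone. Any other difference between the dCIS and WT mice or cultures goes with the genotype label and cannot be told apart from the deletion.

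Hdac9 encodes a class IIa histone deacetylase, a family of proteins that bind transcription factors of the MEF2 family and recruit co-repressors to their target genes. In macrophages these enzymes have been linked to inflammatory gene expression and to cholesterol efflux, and the series names in its title the inflammasome, the complex in which a sensor such as NLRP3 and the adaptor ASC activate caspase-1. A cis-regulatory element acts on genes of its own chromosome, so Hdac9 and its neighbours are the first place to look for a difference.

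The promoter windows of 3 genes lie before annotated starts of genes described below: Hdac9 itself, and Spred3 and Hpn, which both fell in dCIS cells and lie near each other on chromosome 7. Each is the 250 bases before the outermost start in RefSeq (build GRCm38.p6), 5′ to 3′ on the strand of the gene, with motif matches in capitals. Hdac9 and Hpn each have 2 windows in the promoter table, and which start these cells use was not tested. The Hdac9 window is chr12:34917096-34917345 on the minus strand, the Spred3 window chr7:29168648-29168897 on the minus strand, and the Hpn window chr7:31115327-31115576 on the minus strand.
Hdac9: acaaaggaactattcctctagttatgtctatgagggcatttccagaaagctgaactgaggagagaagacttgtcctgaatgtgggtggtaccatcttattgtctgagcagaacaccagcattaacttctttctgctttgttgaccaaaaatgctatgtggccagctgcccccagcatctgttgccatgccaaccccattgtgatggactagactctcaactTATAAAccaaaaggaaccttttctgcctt
Spred3: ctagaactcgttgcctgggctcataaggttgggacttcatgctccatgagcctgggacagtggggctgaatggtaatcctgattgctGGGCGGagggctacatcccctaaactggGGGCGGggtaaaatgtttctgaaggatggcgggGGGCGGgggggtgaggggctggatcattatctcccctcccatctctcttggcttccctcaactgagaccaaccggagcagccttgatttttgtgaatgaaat
Hpn: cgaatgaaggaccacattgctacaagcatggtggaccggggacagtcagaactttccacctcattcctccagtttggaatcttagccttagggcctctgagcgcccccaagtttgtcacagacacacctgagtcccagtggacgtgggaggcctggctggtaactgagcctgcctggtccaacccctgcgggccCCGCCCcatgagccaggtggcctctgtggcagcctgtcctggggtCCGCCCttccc
The capitals mark TATAAA in the Hdac9 window and the GC box GGGCGG in the others, which reads CCGCCC where it lies on the other strand. The TATAAA match of Hdac9 begins 29 bases before the start, and 12.4% of the 32851 mouse promoter windows of that length hold one on either strand. A GC box was found 3 times in the Spred3 window and 2 times in the Hpn window, and at least once in 32.7% of all windows. With 44.4% GC and 0 CpG the Hdac9 window lay below the medians of all windows, 52.4% and 6. None of the 3 windows held a match to PU.1 (GAGGAAGT), AP-1 (TGANTCA), CRE (TGACGTCA), the CCAAT box (CCAAT) or the MEF2 motif on either strand. These matches describe letters and were set against no binding data. Of Hdac9 and the 7 called genes described below, 7 of 8 had a window in the promoter table, and Ly6a was without one.

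The libraries of both groups carried macrophage transcripts at high levels and few of other cell types. Levels are CPM, the counts of a gene scaled to a common library size with the TMM factors of edgeR. Adgre1, which encodes F4/80, was at a mean of 2048 CPM in WT and 1809 CPM in dCIS, Cd68 at 1886 and 1872 CPM, and the M-CSF receptor gene Csf1r at 801.8 and 795.5 CPM. Total counts lay between 15750606 and 16128430 in WT and between 15600199 and 16902065 in dCIS. Along the main axis of variation over these 8 libraries (34.6% of the variance) dCIS library 3 stood at 49.1 and dCIS library 2 at -30.9, with the other 6 between -18.8 and 4.63. Among the libraries after LPS, dCIS 3 and 4 had a count for 17628 and 15997 genes, and every other library for 20458 or more. Genes called in the LPS state below are given with and without these LPS libraries; without them 6 genes were called in place of 38, and 5 of the 38 were kept.

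Hdac9 RNA was not lower without the element. Its level in WT libraries 1 to 4 was 9.15, 12.4, 11.4 and 12.0 CPM, and in dCIS libraries 1 to 4 it was 17.9, 17.0, 13.0 and 14.5 CPM. Each dCIS library lay above each WT library, with 13.0 against 12.4 CPM at the closest. The means were 11.2 ± 1.46 CPM and 15.6 ± 2.23 CPM (SD, n = 4), a log2 fold change of 0.47 with a standard error (SE) of 0.197. By edgeR's quasi-likelihood test this did not pass over all genes (unadjusted p 0.0244, adjusted p 1). The exact 2-sided permutation test of the 70 ways to split these libraries gave p = 0.0286, the smallest that 4 against 4 allows. KO libraries of the same state held 0.841 to 1.31 CPM, and the direct difference of dCIS from KO was 3.90 on the log2 scale (SE 0.246, adjusted p 1.4e-10 by edgeR). After LPS the ranges of the genotypes overlapped, 9.89 to 21.2 CPM in dCIS and 10.4 to 16.5 CPM in WT (log2 0.25, adjusted p 0.647).

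The neighbours of Hdac9 on chromosome 12 did not pass the test either. Of the 10 tested genes on either side, in the gene order of GRCm38, 0 of 20 were called by edgeR and 0 by DESeq2. An unadjusted p under 0.05 was reached by 0. Of all tested genes edgeR called 0.0542%, and 3.61% were at that unadjusted p, so counts of 0 are near those shares. The log2 fold changes of these 20 genes ran from -0.73 to 0.45. Twistnb, which encodes a subunit of RNA polymerase I, is the next tested gene on the one side and was at 19.8 ± 1.31 CPM in WT and 19.5 ± 1.25 CPM in dCIS (log2 -0.02, SE 0.124). On the other side Snx13, a sorting nexin gene, was at 43.0 ± 4.35 and 38.5 ± 10.1 CPM (log2 -0.16, SE 0.157). Ahr, the aryl hydrocarbon receptor gene, had the most negative value of them (log2 -0.73, SE 0.405) at a level near 1 CPM, with ranges that overlapped. The tested genes Tspan13, Bzw2, Ankmy2 and Ispd, further along, had log2 fold changes between -0.41 and 0.13, with overlapping libraries. Twist1, the transcription factor gene next to Hdac9, had 1 count in the WT libraries together and 2 in the dCIS libraries, too few to test. In the list of locus genes taken as neighbours, 13 of 24 were tested and 0 were called by edgeR or DESeq2; 1 of the 13, Hdac9 itself, had an unadjusted p under 0.05. Rapgef5, Cdca7l, Sp4, Itgb8 and Macc1 of that list lie far off in the mouse gene order, with 395 or more tested genes between them and Hdac9, and their log2 fold changes were -0.22, 0.32, 0.07, -0.21 and 0.68, each with overlapping libraries.

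**Figure D1:**
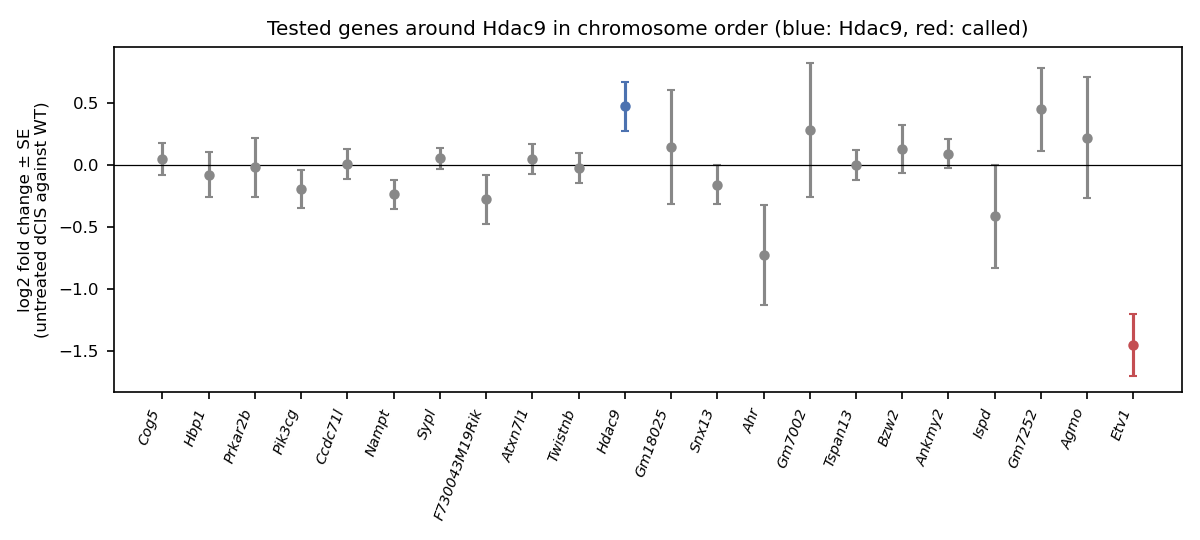
Log2 fold change of untreated dCIS against WT with its SE (y axis) for Hdac9, the 10 tested genes on either side and Etv1, in the order of GRCm38 (x axis). The points beside Hdac9 lie between -0.73 and 0.45, Hdac9 is at 0.47, and Etv1 at the right end is at -1.46.

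Etv1, the only called gene of chromosome 12, lay just outside those 10 genes on one side. It encodes a transcription factor of the ETS family. WT libraries 1 to 4 had 6.22, 7.17, 9.39 and 9.16 CPM, and dCIS libraries 1.69, 3.70, 2.48 and 3.72 CPM. The lowest WT library was above the highest dCIS library. Etv1 fell by 1.46 on the log2 scale (SE 0.252, adjusted p 0.0112 by edgeR), from 7.98 ± 1.54 to 2.90 ± 0.993 CPM. In KO it was at 6.59 to 11.9 CPM, within or above the WT range, and dCIS was lower than KO by a direct test (log2 -1.80, adjusted p 7.45e-05 by edgeR). After LPS the dCIS libraries (1.38 to 3.52 CPM) again lay below all WT libraries (4.12 to 5.41 CPM), with a log2 fold change of -1.11 that did not pass (adjusted p 0.0891). The untreated call was lost without WT library 3 (adjusted p 0.0795) or 4 (0.0686), without dCIS library 1 (0.0952) or 3 (0.104), and in a fit of these 8 libraries alone (0.0798).

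Across the genome few genes differed. edgeR called 8 of 14757 genes (0.0542%), 1 higher (0.00678%) and 7 lower (0.0474%) in dCIS, at an adjusted p under 0.05. An unadjusted p under 0.05 was reached by 533 genes (3.61%), 322 higher (2.18%) and 211 lower (1.43%). The median log2 fold change of all tested genes was 0.00 with quartiles of -0.11 and 0.12, and the median SE was 0.177. DESeq2 called 15 genes, among them all 8. Without a filter on low counts edgeR called 80 genes of 36121.

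The genes that fell were led by Gm15446, a gene model annotated as protein coding that is named here after its values were seen, because the naming rule leaves such models out. It was at 2.46, 2.42, 2.38 and 2.86 CPM in WT libraries 1 to 4 and at 0.0940, 0.0469, 0.0496 and 0 CPM in dCIS libraries 1 to 4. That is 214 counts in the WT libraries together and 4 in the dCIS libraries, a ratio of 53.9 with a 95% interval from counting of 20.8 to 200, and the fitted change was -5.55 on the log2 scale (adjusted p 4.12e-08 by edgeR). KO cells held 2.33 to 2.81 CPM, like WT. After LPS all 4 dCIS libraries were at 0 and the WT libraries at 0.392 to 1.23 CPM (adjusted p 0.000119, and 0.00441 without dCIS libraries 3 and 4 of that state).

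On chromosome 7, 3 genes described here fell: Spred3, Alkbh6 and Hpn. This chromosome holds 7.39% of the tested genes. Hpn encodes the transmembrane serine protease hepsin. WT libraries had 6.04, 5.87, 6.19 and 7.22 CPM and dCIS libraries 0.799, 0.937, 0.992 and 1.15 CPM. The groups lay far apart, and the gene fell by 2.69 on the log2 scale (SE 0.379, adjusted p 0.00062 by edgeR). After LPS the groups were again apart, at 3.396 to 4.332 CPM in WT against 0.0818 to 0.806 CPM in dCIS (adjusted p 0.00436). Without dCIS libraries 3 and 4 after LPS the call of Hpn in that state was lost (log2 -2.54, adjusted p 0.165).

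Spred3, an inhibitor of Ras and MAP kinase signalling by family, was at 5.06, 3.35, 4.86 and 3.30 CPM in WT libraries and 0.846, 0.937, 0.644 and 0.710 CPM in dCIS libraries. It fell by 2.39 on the log2 scale (SE 0.298, adjusted p 9.33e-05 by edgeR) with no overlap; its mean of 4.14 CPM is under the 5 CPM of the naming rule, so it is named after its values were seen. Ggn overlaps Spred3 on the opposite strand, and since no strand setting is given, reads of the pair cannot be told apart; Ggn had a log2 fold change of -1.40 that did not pass (unadjusted p 0.00682). After LPS the Spred3 libraries overlapped, 1.07 to 3.19 CPM in dCIS and 1.63 to 3.92 CPM in WT (log2 -0.43, adjusted p 0.575). The test of the difference between the states did not pass (log2 1.96, SE 0.425, adjusted p 0.341).

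Alkbh6, of the AlkB family of dioxygenases, fell less. WT libraries had 13.7, 15.2, 14.9 and 14.9 CPM and dCIS libraries 8.88, 8.11, 8.73 and 8.87 CPM, a fall by 0.76 on the log2 scale (SE 0.143, adjusted p 0.0321 by edgeR). The groups were tight and did not overlap, before or after LPS (12.9 to 14.9 against 7.30 to 10.5 CPM; log2 -0.64, adjusted p 0.0608, which became 0.0341 without dCIS libraries 3 and 4 of that state). Its call was lost whenever 1 of the 8 libraries was left out, with adjusted p from 0.0536 to 0.179.

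In KO cells all 3 genes split by library, lower in libraries 1 and 3 than in 2 and 4. Hpn had 2.28 and 2.57 CPM in KO libraries 1 and 3 against 5.87 and 5.68 CPM in 2 and 4, and Alkbh6 10.3 and 8.12 against 12.1 and 12.4 CPM. For Alkbh6 every KO library lay below the WT range of 13.7 to 15.2 CPM. KO against WT, which shares the WT libraries, did not pass for that gene (log2 -0.45, adjusted p 0.0524 by edgeR). For Hpn, KO libraries 1 and 3 lay between the dCIS and WT ranges, and libraries 2 and 4 near or within the WT range of 5.87 to 7.22 CPM. Spred3 gave 3.54 and 4.01 CPM in KO libraries 1 and 3 and 5.91 and 5.02 CPM in 2 and 4. Only KO library 2 lay outside the WT range of 3.30 to 5.06 CPM, above it. Tested directly, dCIS was lower than KO for Hpn (log2 -2.08, adjusted p 0.00157) and Spred3 (-2.55, adjusted p 5.12e-06), and for Alkbh6 the difference did not pass (-0.31, adjusted p 0.118), all by edgeR.

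From Spred3 to Hpn there are 59 tested genes in the order of GRCm38, a stretch chosen after its values were seen, with called genes at both ends. An unadjusted p under 0.05 was reached by 15 of the 59 (25.4%), 4 higher and 11 lower, against 3.98% on the rest of the chromosome and 3.61% of all tested genes. In the 50 tested genes just before the stretch it was 12% and in the 50 after it 8%. After LPS, in other libraries and with all 8 of them, 16 of the 59 did (27.1%), against 13.1% of all tested genes, and 15 of the 50 tested genes just before the stretch (30%) but 3 of the 50 after it (6%). For KO against WT, which shares the WT libraries, it was 16 of 59 (27.1%), beside 25.2% of all genes. The median of the stretch was -0.02 on the log2 scale. Among genes that did not pass, the zinc finger gene Zfp30 had a log2 fold change of 2.41 (adjusted p 0.101) untreated and 2.74 after LPS (adjusted p 0.128), and Mag, which encodes myelin-associated glycoprotein, 0.92 and 0.76; both were chosen after their values were seen. Nothing in the stretch is a neighbour of Hdac9, which lies on another chromosome.

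**Figure D2:**
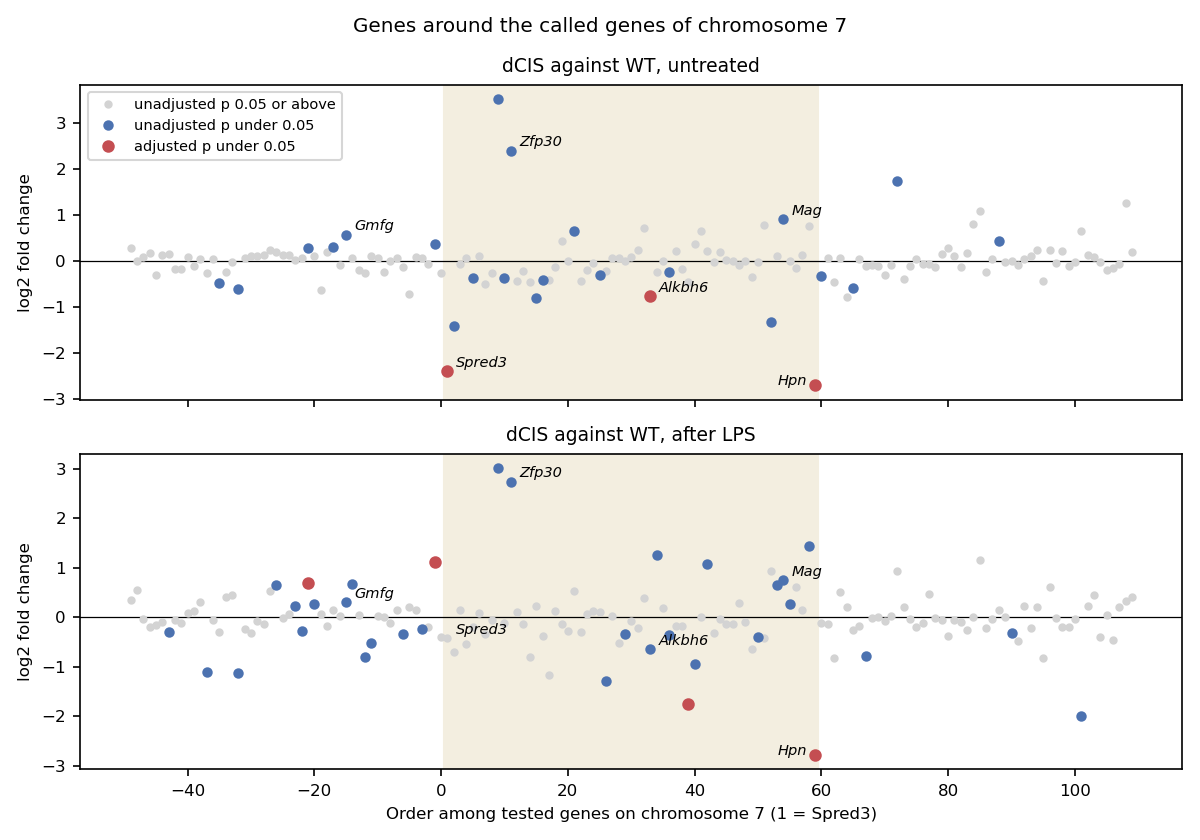
Log2 fold change of dCIS against WT (y axis) of tested genes in chromosome 7 order, with Spred3 as 1 (x axis), untreated above and after LPS below. The shaded stretch holds 59 genes from Spred3 to Hpn; Hpn is low in both panels, and Spred3 is at -2.39 above and -0.43 below.

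Sbno1, a DExD/H box helicase gene on chromosome 5, fell by 0.73 on the log2 scale (SE 0.113, adjusted p 0.00228 by edgeR). Its level was 88.1, 73.0, 79.9 and 87.9 CPM in WT libraries and 48.1, 59.3, 42.6 and 48.0 CPM in dCIS libraries. All WT libraries were above all dCIS libraries, and KO libraries were at 89.8 to 104.7 CPM. After LPS the ranges overlapped, 59.1 to 83.5 CPM in dCIS and 80.9 to 105.6 CPM in WT (log2 -0.44, adjusted p 0.0871). In a fit of the 8 untreated libraries alone the call was lost (adjusted p 0.0798).

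The 1 gene that rose was Ly6a, which encodes the surface protein Sca-1, a marker of blood stem cells that interferon induces in other cells. WT libraries had 6.18, 6.61, 3.57 and 3.83 CPM, and dCIS libraries 17.8, 9.23, 28.2 and 9.05 CPM. The dCIS values were widely spread, highest in library 3, but all above WT, and the rise was 1.67 on the log2 scale (SE 0.326, adjusted p 0.0487 by edgeR). KO stayed at 3.85 to 6.83 CPM. After LPS dCIS was at 27.9 to 56.3 CPM and WT at 12.9 to 21.0 CPM, again apart, with an adjusted p of 0.0528. The untreated call was lost without WT library 1 (adjusted p 0.095), 2 (0.0697), 3 (0.312) or 4 (0.239), without dCIS library 1 (0.136) or 3 (0.279), and in a fit of the 8 libraries alone (0.402). Of 30 tested genes of the type I interferon response 0 were called by edgeR or DESeq2 and 1 was lower at an unadjusted p under 0.05, Irf9 at a log2 fold change of -0.16; their median was -0.05.

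**Figure D3:**
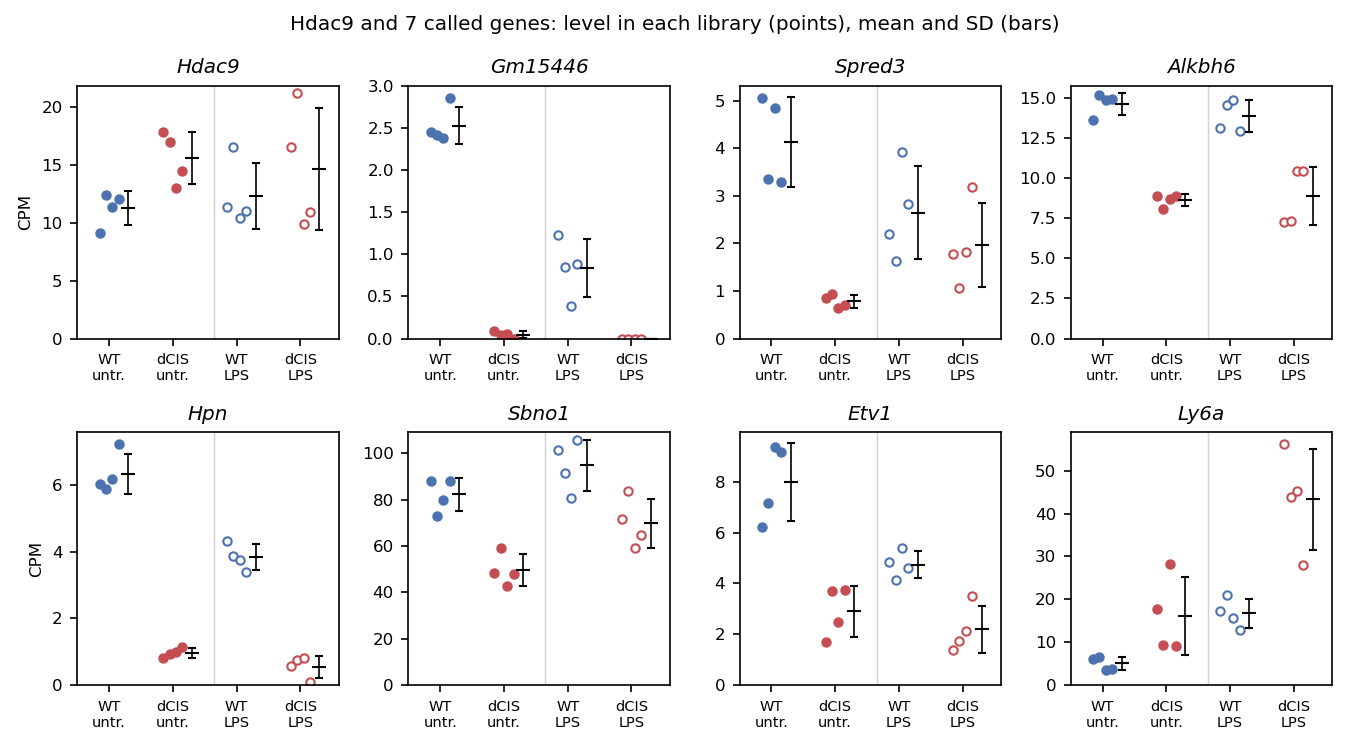
CPM of Hdac9 and 7 called genes in each WT and dCIS library, untreated (filled) and after LPS (open), with mean and SD as bars (y axis, linear, from 0). Untreated groups do not overlap in any panel; after LPS they overlap for Hdac9, Spred3 and Sbno1.

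Just short of the threshold stood Nr1h3, the gene of the oxysterol receptor LXR alpha, which drives cholesterol efflux. It was at 38.9, 29.2, 34.4 and 24.2 CPM in WT libraries and 62.4, 46.5, 89.9 and 55.2 CPM in dCIS libraries. The groups did not overlap; the log2 fold change was 1.00 (SE 0.199) with an adjusted p of 0.0519 by edgeR and 0.00211 by DESeq2. After LPS it passed: 104.3 to 172.4 CPM in dCIS against 51.8 to 69.1 CPM in WT (log2 1.25, adjusted p 0.00281; without dCIS libraries 3 and 4 of that state log2 1.46, adjusted p 0.00441). KO cells had 18.4 to 34.2 CPM, and dCIS was higher than KO by a direct test (log2 1.22, adjusted p 0.000597). Of the LXR targets that export cholesterol neither passed: Abca1 was at a log2 fold change of 0.02 (SE 0.274), with dCIS libraries from 85.0 to 280.4 CPM, and Abcg1 at 0.37 (SE 0.235), both with overlapping libraries. Of 18 tested genes of cholesterol efflux and lipid uptake 0 were called by edgeR, 1 by DESeq2 (Nr1h3), and 1 had an unadjusted p under 0.05; the median was -0.01.

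Gpr137b, which encodes a lysosomal membrane protein linked to mTORC1, also missed the threshold by edgeR. It was at 66.9, 58.7, 63.3 and 57.0 CPM in WT libraries and 104.9, 108.9, 85.7 and 99.4 CPM in dCIS libraries. The groups lay apart (log2 0.70, SE 0.146, adjusted p 0.0794 by edgeR and 0.0112 by DESeq2). After LPS the difference passed (log2 0.97, adjusted p 0.0022 by edgeR). Without dCIS libraries 3 and 4 of that state Gpr137b was at log2 1.29, with an adjusted p of 6.32e-06. In KO it was also higher than in WT, at 118.4 to 141.9 CPM (log2 1.05, adjusted p 0.000114), a comparison that shares the WT libraries; dCIS did not differ from KO past the threshold (log2 -0.35, adjusted p 0.0856). Gmfg, of the actin-regulating glia maturation factors, had 81.6 to 87.1 CPM in WT and 98.4 to 168.1 CPM in dCIS, where library 3 was the highest. Its log2 fold change was 0.58 (adjusted p 0.0794 by edgeR and 0.00441 by DESeq2). Gmfg lies on chromosome 7, among the 50 tested genes just before the stretch described above. Cd5l, a secreted macrophage protein, was at 67.3 to 121.5 CPM in WT and 165.1 to 200 CPM in dCIS (log2 0.96, SE 0.23, adjusted p 0.251), and at 0.96 after LPS too (adjusted p 0.0711). Lcn2, which binds bacterial siderophores, ran from 5.48 to 11.9 CPM in WT and from 11.9 to 21.0 CPM in dCIS. Gdf3, a ligand of the TGF-beta family, ran from 4.84 to 5.39 and from 7.50 to 9.12 CPM. Both had an adjusted p of 0.241 by edgeR, and DESeq2 gave 0.0444 for Gdf3. In KO against WT, which shares the WT libraries, both were higher too (log2 0.87 and 0.66, adjusted p 0.0182 and 0.0312 by edgeR). Against KO, dCIS was at log2 -0.02 for Lcn2 and 0.10 for Gdf3. After LPS dCIS against WT was at log2 -0.12 for Lcn2 and 0.56 for Gdf3, and neither passed. Haus8, Kifc1, Ctc1, Kif22 and Terf2 completed the higher side with log2 fold changes of 0.50, 0.84, 0.39, 0.80 and 0.30, none of which passed.

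On the lower side the gene nearest to passing, among those of 5 CPM or more without overlap, was Maoa, which encodes monoamine oxidase A. It had 9.10, 7.45, 10.5 and 10.1 CPM in WT libraries and 5.83, 4.45, 5.70 and 6.48 CPM in dCIS libraries, without overlap (log2 -0.72, SE 0.177, adjusted p 0.275 by edgeR, 0.0293 by DESeq2). After LPS its fall passed (log2 -0.98, adjusted p 0.028), a call lost without dCIS libraries 3 and 4 of that state (adjusted p 0.268). Ppic, a cyclophilin gene, Zfp626, Papss1, Fkbp9, Ube2v2 and Agpat2 followed, with no overlap, log2 fold changes from -0.67 to -0.28 and adjusted p of 0.34 or more. Without overlap between the 4 and 4 libraries there were 371 genes (2.51%), 178 higher (1.21%) and 193 lower (1.31%).

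Of the 31 pathway lists, the one of mitosis genes had the median farthest from 0. All 22 tested mitosis genes had positive log2 fold changes, from 0.50 to 0.99 with a median of 0.71, beside 0.00 for all tested genes. An unadjusted p under 0.05 was reached by 18 of the 22, against 2.18% of all tested genes in that direction, but 0 were called by edgeR or DESeq2. Their summed level was 380, 453, 252 and 216 CPM in WT libraries 1 to 4 and 686, 607, 434 and 391 CPM in dCIS libraries 1 to 4. The groups overlapped, since dCIS libraries 3 and 4 were below WT library 2. In both groups libraries 1 and 2 were above 3 and 4, and at each replicate number the dCIS sum was above the WT sum. Whether equal numbers pair the libraries is not known. Kif23, a kinesin of cytokinesis with the smallest p of the list, had 12.1, 14.9, 8.38 and 5.96 CPM in WT and 24.8, 25.2, 12.8 and 12.3 CPM in dCIS (log2 0.86, SE 0.269, adjusted p 1). The proliferation marker Mki67, named after its values were seen, was at 53.4 and 81.8 CPM on average (log2 0.61, SE 0.308). The count of 18 rested on single libraries: it was 5 and 4 without WT library 3 or 4, 4 and 10 without dCIS library 1 or 2, and 18 to 22 without any other library. After LPS 20 of the 22 were positive with a median of 0.50, and for KO against WT, with the same WT libraries, the median was -0.23. In bulk RNA more cycling cells and more of these RNAs per cell cannot be told apart.

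The genes of DNA replication and S phase had a smaller median. All 23 tested were positive, with a median of 0.35. An unadjusted p under 0.05 was reached by 7, against 2.18% of all tested genes in that direction, and 0 were called by edgeR or DESeq2. Their sum was 875, 1173, 791 and 684 CPM in WT libraries and 1233, 1019, 969 and 1015 CPM in dCIS libraries, which overlapped through WT library 2. E2f2, an E2F transcription factor, had the smallest p (6.40 to 10.8 CPM in WT, 11.9 to 16.4 CPM in dCIS, log2 0.64, adjusted p 1). That count of 7 became 14 without WT library 2, 2 and 1 without WT library 3 or 4, and 1 without dCIS library 1, and after LPS 13 of the 23 were positive. Of the monocyte and proliferating progenitor list 6 of 14 were tested, with a median of 0.36 and 0 at an unadjusted p under 0.05; its leading member, Kit, was under 1 CPM in each library.

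**Figure D4:**
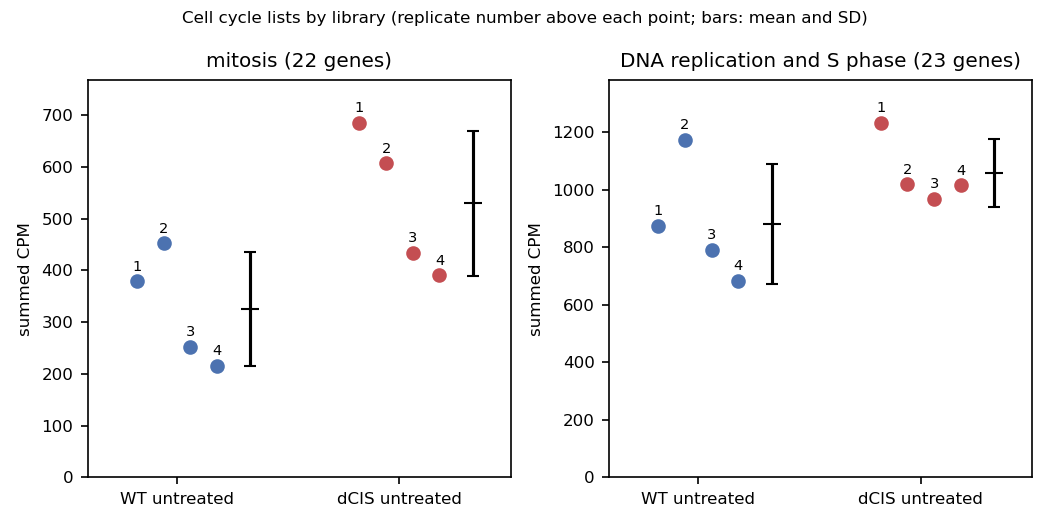
Summed CPM of the 22 mitosis genes (left) and the 23 genes of DNA replication and S phase (right) in each untreated library, with replicate numbers above the points and mean and SD as bars (y axes from 0). For mitosis dCIS libraries 1 and 2, at 686 and 607, stand above all WT libraries, and 3 and 4 do not.

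No gene of the inflammasome, which the title of the series names, passed the test. Of 20 sensors, adaptors and effectors 0 were called by edgeR or DESeq2 and 0 had an unadjusted p under 0.05, with a median of -0.01. Of all tested genes edgeR called 0.0542%, and 3.61% were at that unadjusted p. Counts of 0 of 20 are near those shares. The sensor gene Nlrp3 was at 81.8, 54.1, 52.1 and 52.2 CPM in WT libraries and 61.6, 53.0, 35.8 and 57.9 CPM in dCIS libraries, with overlap (log2 -0.20, SE 0.164). Casp1, the protease that matures IL-1 beta and IL-18, had 82.7 to 94.1 CPM in WT and 85.8 to 104.7 CPM in dCIS (log2 0.11, SE 0.0978). Among the substrates, Il1b was at 1.40 to 5.34 CPM in WT and 0.703 to 3.37 CPM in dCIS (log2 -0.28, SE 0.442), and Il18 at 5.99 to 7.81 and 5.95 to 7.04 CPM (log2 -0.05, SE 0.122). Ninj1, which ruptures the plasma membrane at the end of lytic death, led the list (log2 -0.20, unadjusted p 0.0701). In the IL-1 family list 11 of 16 were tested and 0 were at an unadjusted p under 0.05, with Il18bp, the inhibitor of IL-18, first at 0.22.

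No cytokine gene of resting cells passed the test. Tnf was at 169, 101.2, 101.4 and 101 CPM in WT and 113.2, 74.5, 94.2 and 126.5 CPM in dCIS (log2 -0.21, SE 0.197), and its sign turned without WT library 1 (0.01). Il6 was under 1 CPM in each of the 8 libraries. Of 25 tested genes in the cytokine and chemokine list 0 were called by edgeR or DESeq2. At an unadjusted p under 0.05, 1 was higher and 2 were lower, beside 2.18% and 1.43% of all tested genes. Ccl5, a chemokine for T cells, had the smallest p (log2 -0.75, SE 0.257, adjusted p 1). The others were Nos2 (log2 -2.97, 59 counts in WT and 7 in dCIS) and Cxcl1 (log2 1.03, 140 and 289 counts). Both are named after their values were seen, and their libraries overlapped. The TLR4 pathway had 1 of 20 at an unadjusted p under 0.05 (Map3k8, -0.32) and the NF-kB list 1 of 19 (Birc3, -0.28), with medians of -0.05 and -0.06. Of all tested genes 3.61% were at that p, in either direction. Complement and alternative activation had 0 of 11 and 0 of 10, and Mgl2 had the smallest p of the latter (-0.88).

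None of the relatives and partners of HDAC9 passed the test. Hdac4, Hdac5 and Hdac7, the other class IIa genes, had log2 fold changes of -0.06, -0.05 and 0.04, and Mef2a, Mef2c and Mef2d -0.10, 0.01 and -0.03, each with an SE of 0.109 to 0.169 and overlapping libraries. In the list of class IIa HDACs and partners, 1 of 14 tested genes had an unadjusted p under 0.05, Hdac9 itself. For the other HDACs and sirtuins it was 0 of 14 (Sirt2 first, at -0.23) and for MEF2 and class IIa target genes 0 of 12, where Abcg1 had the smallest p. None of these genes was called by edgeR or DESeq2. Of all tested genes edgeR called 0.0542%, and 3.61% had an unadjusted p under 0.05, so counts of 0 are near those shares.

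No gene of antigen presentation passed the test. For MHC class I 13 of 15 tested genes were positive with a median of 0.18, 1 at an unadjusted p under 0.05 (H2-Q4, 27.3 to 32.7 CPM in WT and 34.5 to 38.6 CPM in dCIS, log2 0.28), and 0 called by edgeR or DESeq2; after LPS 5 of 15 were positive. MHC class II and co-stimulation had a median of 0.18 over 10 genes, 6 positive, with 1 at that p, H2-Ab1 (log2 0.53). The 4 negative ones were the co-stimulatory and checkpoint genes Cd40 (-0.12), Cd80 (-0.11), Cd86 (-0.34) and Cd274 (-0.22), named after their values were seen. Macrophage identity genes had a median of -0.01 over 19, with 2 higher and 1 lower at an unadjusted p under 0.05; the scavenger receptor gene Marco, named after its values were seen, was the lower one (172.2 and 88.6 CPM on average, log2 -0.96, adjusted p 0.953).

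No gene of lipid synthesis or the clock was called by edgeR or DESeq2, and most had negative log2 fold changes. In cholesterol synthesis 22 of 23 tested genes were negative (median -0.24), 1 with an unadjusted p under 0.05, the isomerase gene Idi1 (13.5, 18.5, 8.92 and 23.6 CPM in dCIS, 21.1 to 26.4 CPM in WT, log2 -0.52). The summed level of that list ran from 2527 to 2805 CPM in WT and from 1858 to 2903 CPM in dCIS, with library 3 lowest and library 4 highest. In fatty acid synthesis 10 of 11 were negative (median -0.24), led by Scd1, a desaturase, where dCIS library 4 at 38.4 CPM exceeded all others. All 15 tested clock genes were negative (median -0.22; 1 at an unadjusted p under 0.05, Ciart at -0.47), but only 9 of them after LPS. Mitochondrially encoded genes had a median of -0.25 over 11, with sums of 9102 to 13910 CPM in WT and 5450 to 11820 CPM in dCIS, lowest in library 3. These directions were shared by genes of the same 8 libraries and are counts, not tests.

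The medians of 7 further lists lay between -0.13 and 0.03. They were 0.03 for glycolysis and lysosome, -0.03 for iron handling, 0.00 for immediate early and heat shock genes, -0.08 for the NRF2 response, -0.09 for matrix remodelling and -0.13 for the unfolded protein response and ATF4 targets, with 0, 0, 1, 0, 0, 0 and 1 genes at an unadjusted p under 0.05. Their members of smallest p were Pfkfb3 (-0.18), Grn (0.25), Lcn2 (0.85), Hsp90aa1 (0.23), Cat (-0.27), Fn1 (-0.66) and Chac1 (-1.39), none called by edgeR or DESeq2. The sex genes, of which 4 of 6 were tested, all on chromosome Y, had a median of 0.22, with 3 positive and 2 higher at an unadjusted p under 0.05. Over chromosome Y as a whole 3 of 10 tested genes (30%) were at that p, in either direction, beside 3.61% of all tested genes. Ddx3y, an RNA helicase gene, was at 45.9 to 63.2 CPM in WT and 63.5 to 73.5 CPM in dCIS (log2 0.30, adjusted p 1), and Xist had 1 and 2 counts over the groups.

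**Figure D5:**
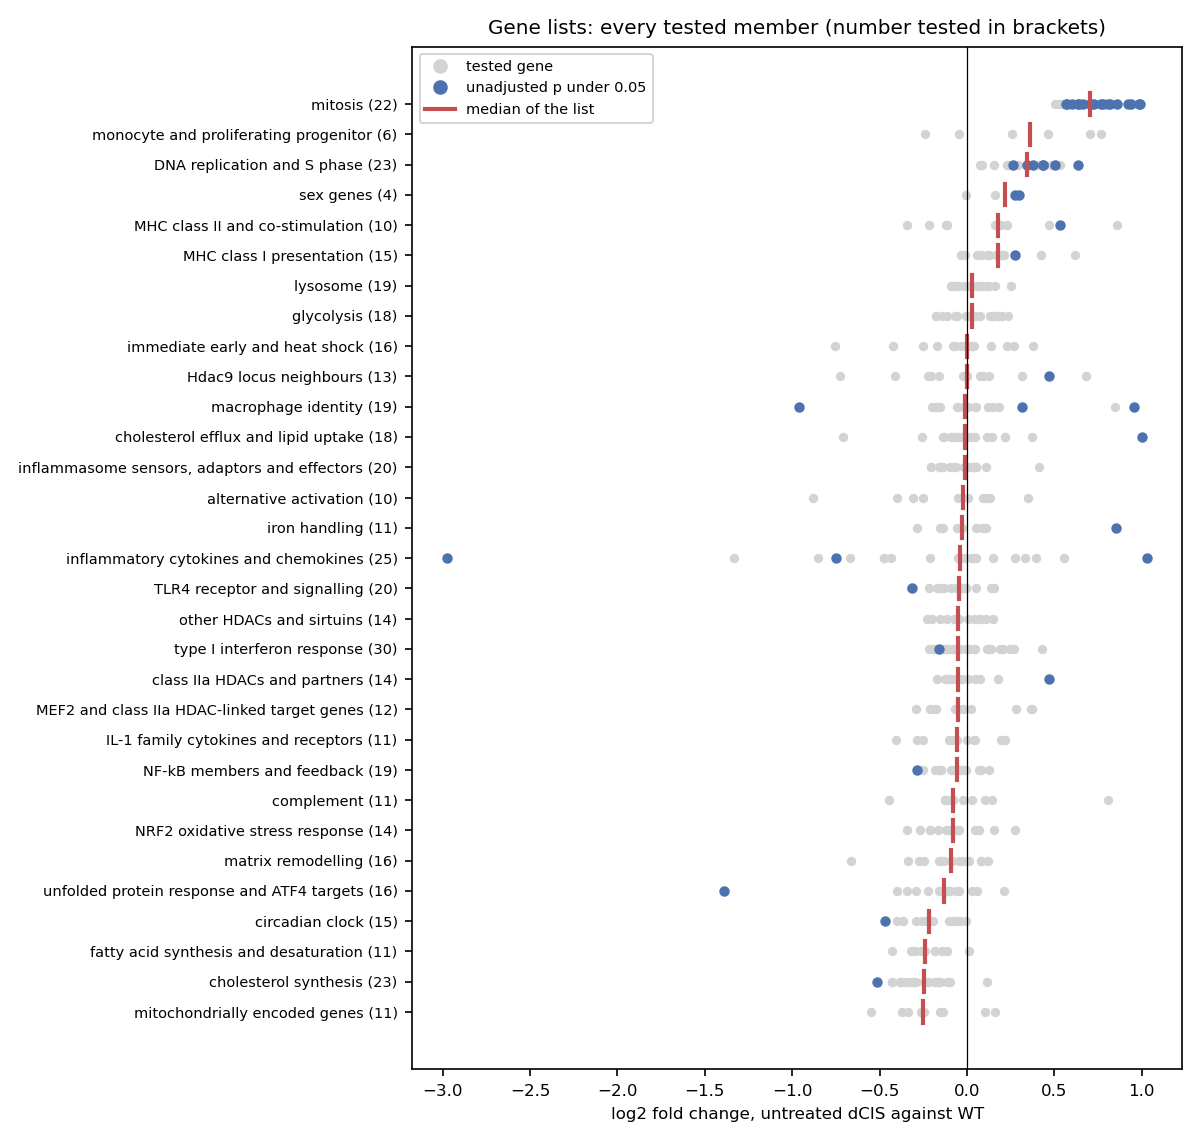
Log2 fold change of untreated dCIS against WT (x axis) of every tested gene in the 31 pathway lists (y axis, number tested in brackets), with the median as a bar and genes at an unadjusted p under 0.05 in blue. The mitosis list, with a median of 0.71, is the highest and lies wholly above 0.

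No marker of other cells passed the test, and the summed levels of each marker list with a tested gene overlapped between the groups. Mast cell and basophil markers had 0 of 7 tested, fibroblast markers 1 of 7 (Pdgfrb, at most 0.194 CPM), neutrophil markers 2 of 10 (summed 1.07 to 2.23 CPM in WT and 1.22 to 2.13 CPM in dCIS; Ly6g and Elane at 0) and erythroid and megakaryocyte markers 2 of 9, mainly Pf4, a gene that macrophages also express (432.9 to 459 CPM in WT, 378.2 to 779.9 CPM in dCIS). Dendritic cell markers gave sums of 8.58 to 10.3 and 8.53 to 13.1 CPM over 3 of 9 tested, all 3 positive and nearly all of the level from Batf3. Lymphocyte markers gave 33.3 to 77.4 and 25.9 to 65.5 CPM over 3 of 11, from Ighm, Cd79b and Cd4 (log2 -0.82, unadjusted p 0.0161), with Cd3e at 2 counts in each group. Endothelial markers gave 28.6 to 34.9 and 28.4 to 40.7 CPM over 4 of 6, mostly Vwf, and osteoclast markers 93.0 to 141.5 and 101.3 to 126.6 CPM over 5 of 8, all 5 negative (median -0.12) and mostly Atp6v0d2. None of the marker genes was called by edgeR or DESeq2, and 1, Cd4, had an unadjusted p under 0.05. Their part in the results above was not tested.

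Set beside the other comparisons, untreated dCIS against WT gave few calls. KO against WT gave 1079 called genes (7.31%) and dCIS against WT after LPS 38 (0.258%), 17 higher (0.115%) and 21 lower (0.142%). The former shares the WT libraries. The direct test of dCIS against KO called 3147 genes (21.3%). For the dependence of the dCIS difference on LPS edgeR called 0 genes (0%) and DESeq2 1, with 1159 (7.85%) at an unadjusted p under 0.05. Of the 7 called genes described here, 2 were called after LPS too: Gm15446 and Hpn. All 7 kept the sign of their fold change in that state, and in 5 of them the LPS libraries did not overlap. The shares of all tested genes that did so were not counted, so these 2 counts stand without a background.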

How the data were processed

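RNA of 24 libraries of macrophages grown from mouse bone marrow was counted per gene: 3 genotypes, untreated or after LPS, 4 libraries in each of 6 groups, grouped by their titles. The whole-number counts were deposited by the authors, not normalized; per the labels' protocols they came from oligo-dT selected RNA read in pairs, and the submitters' processing notes list STAR, edgeR and the mm39 build. Not given in the sources used here are the program that counted reads, whether it used strand, and the annotation release. Every column of the table belonged to a sample (0 without one), and 51948 of 56941 gene IDs (91.2%) matched a symbol.

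All 24 libraries were fitted together with edgeR 4.0.16 in R 4.3.3 (TMM scaling, quasi-likelihood, 18 residual degrees of freedom), over the 14757 genes that passed its filter by expression (minimum count 10, minimum total 15), 2-sided. P-values were adjusted by Benjamini-Hochberg over all of them, with calls made under 0.05. Levels are CPM on TMM-scaled library sizes, and an SE is the log2 fold change over the root of its F statistic. Total counts were 14636058 to 19181707 per library, and intervals (95%) and limits from a count of 0 (3 counts) cover counting error only. DESeq2 1.42.0 and the other settings tried are described with their effect at the end. The fitting code was tested on simulated data. Gene order along chromosomes came from GRCm38 and serves only to name neighbours, with 98.3% of the tested genes placed.

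Named genes were Hdac9, those called genes whose libraries did not overlap and whose higher group averaged 5 CPM or more, the genes of smallest p that filled each direction to 12, the smallest-p member of each list, the tested locus neighbours and a set of inflammasome, cytokine, lipid export, HDAC and MEF2 genes. Gene models known by a number, a clone or as a pseudogene were counted only, except where the text says otherwise. A called gene that is not reported here enters only the totals over all genes. The comparison, the 39 gene lists and this rule were chosen with earlier results of these data known.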

Additional observations from a re-analysis of the deposited data

Results flagged for a closer look

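Among 196 groups of 4 libraries examined for the genes described, 12 (6.12%) had 1 library whose gap to the nearest other took up more of the group's range than the 95% critical value of Dixon's test allows. Chance gives about 1 in 20 such groups. In untreated WT, library 1 stood above the other 3 for Nlrp3 (81.8 CPM against 52.1 to 54.1), Tnf (169 against 101 to 101.4), Agpat2 (33.8 against 28.5 to 29.2) and Ispd (1.67 against 1.10 to 1.16). WT library 2 was low for Ninj1 (195.1 CPM against 220.8 to 226) and high for Batf3 (9.87 against 8.05 to 8.19) and Bzw2 (19.4 against 14.1 to 15.0). WT library 4 was high for Gm15446 (2.86 CPM against 2.38 to 2.46) and held the only Macc1 reads of its group (0.0485 CPM against 0). In untreated dCIS, library 4 was high for the desaturase gene Scd1 (38.4 CPM against 15.9 to 19.2) and library 2 for Sp4 (4.08 against 2.53 to 2.63). After LPS, dCIS library 4, which had the fewest genes with a count, was low for Maoa (1.64 CPM against 3.37 to 3.49). The part of any cause in these values was not tested. The test of whether the difference of dCIS from WT depended on LPS did not pass for any gene described (smallest adjusted p 0.341 by edgeR).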

How the results depend on the processing

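The 8 calls of untreated dCIS against WT were 7 in a fit of these groups alone (5 of the 8 kept), 9 with a stricter filter of 1 CPM in 4 libraries, 10 with RLE size factors, 15 with DESeq2, 16 without dCIS libraries 3 and 4 after LPS (an alternative chosen after seeing the data) and 80 without a filter on low counts; leaving out 1 library gave 5 to 9. Gm15446, Spred3, Hpn and Sbno1 were called whichever of the 8 libraries was left out. Whether equal replicate numbers pair the libraries cannot be decided from these values. Between untreated WT and dCIS, deviations from the group means correlated at 0.154, -0.154, 0.157 and 0.0505 for numbers 1 to 4. Of the WT libraries, 2 of 4 correlated best with their own number. The summed mitosis levels were higher in libraries 1 and 2 than in 3 and 4 in both groups. With the replicate number as a block 34 genes were called over all 24 libraries and 14 in the compared groups alone, where Sbno1 (adjusted p 0.0912), Alkbh6 (0.0692) and Ly6a (0.149) were not; Hdac9 stayed at 0.46 (adjusted p 0.659) with the block over all libraries, and at 0.39 to 0.56 without single libraries. For dCIS against WT after LPS the 38 calls became 277 without a filter, 91 with the replicate block, 12 in the compared groups alone, 70 there with the block, 230 with DESeq2, 6 without dCIS libraries 3 and 4 of that state, and 16 (without WT library 2) to 195 (without dCIS library 1) without single libraries. The dependence of the difference on LPS, with 0 calls, gave 35 without a filter, 1 each with the stricter filter, the replicate block, DESeq2 and without dCIS libraries 3 and 4 after LPS, and 0 to 3 without single libraries. The 3147 calls of dCIS against KO were 1317 in these groups alone and 1198 (without dCIS library 3) to 4488 (without dCIS library 2) without single libraries. Among the named genes 3 that had not passed turned their sign: Tspan13 was at 0.0080 with RLE size factors, 0.00027 with the replicate block, 0.0056 in the compared groups alone, 0.0013 there with the block and 0.0070 with DESeq2; Abca1 was at -0.11 and -0.097, and Mef2c at -0.0067 and -0.0029, with the block over all libraries and in the compared groups. Leaving out single libraries carried further uncalled log2 fold changes across 0: Tnf from -0.33 to 0.014, Mef2a -0.24 to 0.047, Il1b -0.52 to 0.16, Il18 -0.10 to 0.028, S100a8 -0.045 to 0.30, Hdac5 -0.16 to 0.037, Hdac4 -0.10 to 0.016, Itgb8 -0.50 to 0.10, Sp4 -0.12 to 0.16, Hdac7 -0.023 to 0.097, Mef2d -0.094 to 0.072, Twistnb -0.067 to 0.025, Abca1 -0.39 to 0.25, Mef2c -0.14 to 0.15 and Tspan13 -0.073 to 0.10. The fit without a filter tests more genes; for the other changes the cause was not tested. With 4 libraries a group and genes such as Il6 and Twist1 at a few counts, a difference in those genes was not detectable at this depth.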
